A study of Homo sapiens with 40 samples.

Results

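The data set described here is the 1 h response of BT474 cells to heregulin (HRG) as read by RNA sequencing. All libraries whose labels name BT474, HRG and 1 h were set against the BT474 libraries that received vehicle for 1 h, which gave 4 libraries (2 HRG, 2 vehicle) of the 40 in the series, and every gene with enough reads was tested. BT474 is a human breast cancer line with amplified ERBB2 (HER2) and was compared in the study with BT474R, a single trastuzumab-resistant clone grown out of BT474 under that antibody. Both lines were serum starved before treatment, time-zero (T0) cells were collected at the end of starvation, and the remaining cells received 10 ng/mL HRG, 50 ng/mL EGF or vehicle (water) in fresh starvation medium. Libraries were made after 1, 12 or 24 h, 2 for every one of the 20 pairings of a line with a treatment and time. HRG-BT474 and EGF-BT474 below stand for BT474 treated with either ligand, and every 1 h group, vehicle included, had been starved and then given fresh medium.

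HRG, also called neuregulin, is an EGF family growth factor that binds ERBB3 and ERBB4, and these pair with the ligandless ERBB2 to start MAP kinase and PI3K signaling. EGF binds EGFR, which also pairs with ERBB2. Growth factor signals of this kind switch on immediate early genes, whose transcription needs no new protein, and then the feedback genes that damp the same signals: serum response factor (SRF) binds the CArG box in many such promoters, and CREB binds the cyclic AMP response element (CRE).

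The 4 libraries held 20308115 to 22576514 counted reads each, and the 2 EGF libraries at 1 h held 27777760 and 28192208. Levels are given below as CPM, the reads of a gene per megaread of the library, scaled by the trimmed mean of M values (TMM). Where pairs of values follow each other without a label, the first pair is vehicle and the second HRG. The labelled cell type matched its markers: the 10 luminal and HER2-amplification genes (ERBB2, GRB7, STARD3, keratins, EPCAM, CDH1, GATA3, FOXA1) summed to between 15938 and 16199 CPM in the 4 libraries. Of 12 fibroblast, endothelial and leukocyte markers, 5 did not reach the filter, among them COL1A2, DCN, PTPRC and CD3E, and the other 7 summed to between 104.9 and 123 CPM, nearly all of it COL1A1 and VWF. None of those 7 was called.

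The promoters of a few responding genes are shown first to give the letters behind the motif counts that follow. RefSeq promoter windows (GRCh38.p14, 250 bases before to 50 bases after the start of the gene, 1 window a gene) could be matched by symbol for 15526 of the 23143 tested genes that are not copy rows. Below are the 150 bases before the start of 5 raised genes, 5′ to 3′ on the strand of the gene, with CArG boxes, CREs (TGACGTCA), TEAD sites (GGAATG, shown for CCN2 only) and TATA boxes (TATAAA) in capitals.
EGR1 (chr5:138465329-138465478, plus strand): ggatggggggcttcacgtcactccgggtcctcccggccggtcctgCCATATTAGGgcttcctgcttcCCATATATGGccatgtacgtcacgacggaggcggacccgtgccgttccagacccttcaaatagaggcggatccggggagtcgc
ACTA1 (chr1:229434095-229434244, minus strand): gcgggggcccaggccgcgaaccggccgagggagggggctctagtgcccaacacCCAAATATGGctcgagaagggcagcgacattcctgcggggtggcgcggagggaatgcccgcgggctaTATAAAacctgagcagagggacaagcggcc
AREG (chr4:74444986-74445135, plus strand): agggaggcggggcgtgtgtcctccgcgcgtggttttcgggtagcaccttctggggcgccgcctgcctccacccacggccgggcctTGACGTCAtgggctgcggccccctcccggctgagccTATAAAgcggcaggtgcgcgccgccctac
DUSP1 (chr5:172771196-172771345, minus strand): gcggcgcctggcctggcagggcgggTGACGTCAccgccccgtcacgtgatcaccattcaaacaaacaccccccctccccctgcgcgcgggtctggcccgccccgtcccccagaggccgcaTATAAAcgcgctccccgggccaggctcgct
CCN2 (chr6:131951373-131951522, minus strand): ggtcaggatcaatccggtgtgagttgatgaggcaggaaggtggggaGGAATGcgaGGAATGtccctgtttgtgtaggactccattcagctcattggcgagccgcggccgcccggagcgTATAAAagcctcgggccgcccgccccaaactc
EGR1 had CArG boxes that began 105 and 83 bases before the start, and ACTA1 had 1 that began 97 bases before it. The CRE began 65 bases before the start in AREG and 125 bases in DUSP1. Searched on both strands over the 300-base windows, a CArG box was present in 1.11% of the tested genes and in 17 of the 403 raised genes with a window (4.22%). The CRE was in 2.72% of the tested genes, in 36 raised genes (8.93%) and in 0 of the 92 lowered genes with a window. TATAAA was in 7.7% of the tested genes, in 11.7% of the raised ones and in 13 of the 28 with a window that rose by at least 2 on the log2 scale (46.4%). Without copy rows 41 genes rose that much. An AP-1 site (TGANTCA) was in 5.73% of the tested genes and 4.96% of the raised ones, an EGR site (GCGNGGGCG) in 13.3% and 19.1%, and a TEAD site in 12.2% and 12.9%. In the 92 lowered genes the EGR site was in 22.8%, TATAAA in 12%, the TEAD site in 12%, the AP-1 site in 5.43% and the CArG box in 1.09%. In the 28 genes with a window that rose by at least 2, the EGR site was in 7.14%, the TEAD site in 21.4%, the CArG box in 14.3%, the CRE in 7.14% and the AP-1 site in 3.57%. These matches describe letters in the windows and were not tested. The CRE holds the shorter TGACG, which was present in 30.3% of the tested genes, 48.1% of the raised and 25% of the lowered ones.

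The first question was which transcripts HRG changed within 1 h. HRG-BT474 had 696 differentially expressed genes (DEGs) at adjusted p under 0.05, of which 544 were raised (2.16% of the 25146 genes tested) and 152 lowered (0.604%). Immediate early transcription factors led the rises, with EGR2 up 68.3-fold, FOS up 25-fold and EGR1 up 16.4-fold, together with the matricellular gene CCN2 (up 56.1-fold) and the small GTPase RASD1 (up 44.8-fold). Among genes with at least 1 CPM the steepest fall was 3.64-fold. Each adjusted p below is from the quasi-likelihood test of edgeR (Benjamini-Hochberg), and errors of fold changes are standard errors (SE) from that fit with 2 libraries a group. The median log2 fold change over all tested genes was -0.01, and 1608 genes were higher and 1424 lower at an unadjusted p under 0.05. The number of lowered DEGs depended on the setting (79 with DESeq2, 271 when fitted on the 4 libraries alone, and 56 to 87 when any 1 of them was left out), and leaving out vehicle replicate 2 took the total from 696 to 455. The labels do not say whether the 2 libraries of a group came from separate cultures, so the p-values measure the spread between these libraries, which may be technical.

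**Figure D1:**
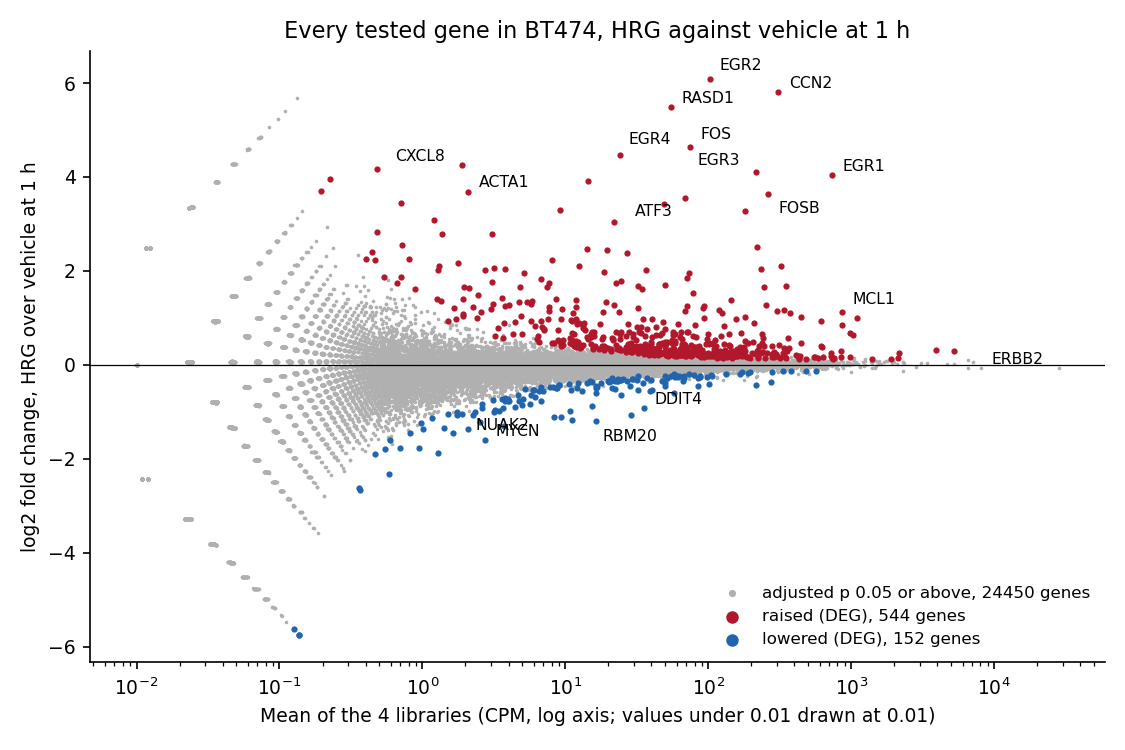
Each point is 1 of the 25146 tested genes: mean of the 2 HRG and 2 vehicle libraries in CPM (log axis) against the log2 fold change, HRG over vehicle at 1 h. The 544 raised genes (red) reach 6.09 (EGR2), whereas the 139 of 152 lowered genes (blue) with at least 1 CPM reach -1.87, scarcer ones reach -5.74, and ERBB2 lies near 0 at the right.

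Most raised DEGs changed modestly. Of the 544, 221 rose by at least 0.5 on the log2 scale, 113 by at least 1, 44 by at least 2 and 9 by at least 4, and the median rise was 0.41. The median fall over the 152 was 0.49, with 73 falling by at least 0.5, 31 by at least 1, 6 by at least 2 and 3 by at least 4. Those 3, BEST4, LOC107985192 and LOC105376964, were named after their values were seen and had 5 or 6 reads in each vehicle library and 0 in each HRG library, so their fitted values depend on the prior count. Gene rows that are copies of another row (the same symbol with a number added) made up 33 of the raised and 4 of the lowered DEGs and are not named. Whether more cells responded or each cell held more of a transcript cannot be told apart in these bulk libraries.

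EGR2, a zinc finger transcription factor of the early growth response family, made the largest rise. It was at 3.22 and 2.67 CPM in the vehicle libraries and at 208 and 194 CPM in the HRG libraries. Both HRG libraries were far above both vehicle libraries, with a log2 fold change of 6.09 ± 0.11 (adjusted p = 7.96e-33). CCN2 (CTGF), a secreted matricellular protein and a familiar YAP-TEAD target, went from 12.5 and 9.19 CPM to 626 and 585 CPM. Its log2 fold change was 5.81 ± 0.07 (adjusted p = 1.63e-38). RASD1, a Ras-related GTPase first described as induced by dexamethasone, went from 3.08 and 1.79 CPM to 112 and 104 CPM, a log2 fold change of 5.48 ± 0.12 (adjusted p = 6.36e-31). The groups did not overlap in these 3 genes, which the naming rule required. Over all 25146 tested genes, both HRG libraries lay above both vehicle libraries in 5255 and below them in 5678.

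FOS, the partner of JUN in the AP-1 factor, was at 5.24 and 6.12 CPM with vehicle and 143 and 141 CPM with HRG (4.64 ± 0.09 on the log2 scale). EGR4 was at 2.41 and 1.75 CPM and then 46.2 and 45.6 CPM (4.47 ± 0.15). CXCL8 (interleukin 8), a neutrophil-attracting chemokine, rested on few reads, with 5 and 3 counts in the vehicle libraries and 89 and 61 in the HRG libraries, and its log2 fold change was 4.26 ± 0.40 (adjusted p = 5.78e-10). The next largest rises were those of EGR3 (4.11), EGR1 (4.04), the orphan nuclear receptor NR4A3 (3.92), the skeletal muscle actin ACTA1 (3.69), FOSB (3.63) and the stress-responsive bZIP factor ATF3 (3.56). ACTA1 was low, at 0.289 and 0.306 CPM with vehicle and 4.31 and 3.49 CPM with HRG, and is nearly identical in coding sequence to other actins, so the share of its reads that belongs to it is uncertain.

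**Figure D2:**
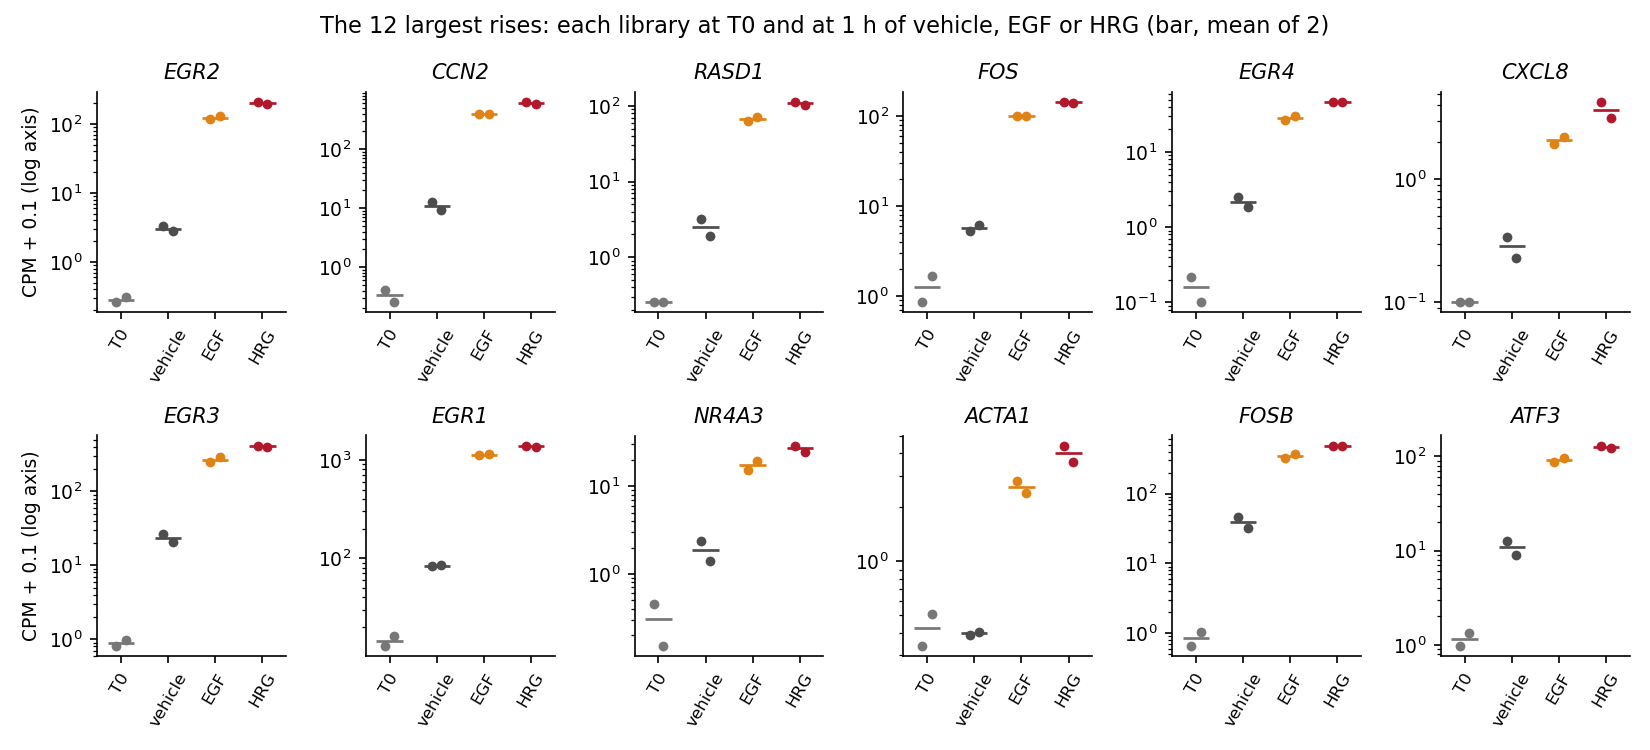
CPM (plus 0.1, log axis) of the 12 genes with the largest rises in each BT474 library at T0 and after 1 h of vehicle, EGF or HRG; points are libraries and bars the mean of 2. In all 12 panels both HRG libraries lie above both EGF libraries and these above both vehicle libraries, and 11 genes, all but ACTA1, also sit higher with vehicle than at T0.

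Vehicle cells were not at rest for these genes. Between T0 and 1 h of vehicle in fresh medium, 923 genes rose (3.67% of those tested) and 739 fell (2.94%), a comparison that shares its vehicle libraries with the HRG comparison. EGR1 went from 12.7 and 15.9 CPM at T0 to 82.3 and 85.1 CPM with vehicle and 1402 and 1349.6 CPM with HRG, FOSB from 0.556 and 0.923 CPM to 46.1 and 31.9 CPM and 489 and 474.4 CPM, and EGR3 from 0.715 and 0.872 CPM to 26.1 and 20.8 CPM and 417 and 393 CPM. CCN2 went from 0.318 and 0.154 CPM at T0 to 12.5 and 9.19 CPM with vehicle. Other genes moved little with vehicle: AREG was at 3.77 and 3.44 CPM at T0 and 5.53 and 3.98 CPM after vehicle, and ZFP36 at 28.4 and 30.2 CPM and 32.6 and 27.6 CPM. The HRG fold changes here are over the vehicle level, not over T0.

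The EGR factors rose by 4.04 to 6.09 on the log2 scale, far more than their NAB corepressors. Of the 6 genes on this list, 5 were raised and 1 was not called, with a median log2 fold change of 4.08. For this list and those below, the shares over all tested genes were 2.16% raised and 0.604% lowered. EGR1, which drives many growth factor target genes, stood at 82.3 and 85.1 CPM with vehicle and 1402 and 1349.6 CPM with HRG (4.04 ± 0.06, adjusted p = 1.16e-35), and EGR3 at 26.1 and 20.8 CPM and 417 and 393 CPM (4.11 ± 0.08, adjusted p = 1.62e-32). NAB2, a corepressor that EGR factors induce and that represses them in turn, was raised from 25 and 21 CPM to 38.8 and 41 CPM (0.80 ± 0.09, adjusted p = 1.32e-08). Its relative NAB1 was at 7.41 and 6.78 CPM with vehicle and 7.64 and 6.98 CPM with HRG, with overlapping libraries (adjusted p = 0.943).

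Of the 12 AP-1 and related bZIP factors, 11 were raised, and BATF alone was not called. The median was 2.07, and the raised members ran from 0.45 (MAFG) to 4.64 (FOS). FOSB, a FOS relative, was at 46.1 and 31.9 CPM with vehicle and 489 and 474.4 CPM with HRG (3.63 ± 0.08, adjusted p = 1.08e-29). ATF3 was at 12.7 and 8.92 CPM and 130.5 and 123 CPM (3.56 ± 0.09, adjusted p = 3.37e-28). MAFF, a small MAF protein without a transactivation domain, was at 9.57 and 7.7 CPM and 46 and 44.1 CPM (2.39 ± 0.11, adjusted p = 7.79e-20). The groups were apart for all 3, as they were for all 544 raised DEGs.

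Among 13 further immediate early genes, 9 were raised, with a median of 1.33. NR4A1, NR4A2 and NR4A3 encode orphan nuclear receptors and all 3 were raised: NR4A1 from 74.4 and 57 CPM to 378 and 364 CPM (2.50 ± 0.07, adjusted p = 3.17e-26), NR4A2 by 1.75 and NR4A3 by 3.92 on the log2 scale. IER2, a nuclear protein named as an immediate early response gene, was at 119 and 114 CPM and 371 and 368 CPM (1.66 ± 0.04, adjusted p = 1.03e-27). IER5, IER5L, SIK1 and CREM were not called. IER3 is also present as copy rows, so its reads may be split.

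Kruppel-like and ETS factors included raised members too. Of 12 Kruppel-like factors 5 were raised, against 2.16% of all tested genes, with a median of 0.32: KLF6 was at 151 and 146 CPM with vehicle and 362 and 357 CPM with HRG (1.28 ± 0.04, adjusted p = 1.22e-23), KLF2 at 42.8 and 42.3 CPM and 92 and 97 CPM (1.15 ± 0.06, adjusted p = 1.35e-17), and KLF7 and KLF10 rose by 0.61 and 0.51. Of 12 tested ETS factors 2 were raised, ETS2 by 0.77 and ELF3 by 0.19, and the median was 0.01. The ELF3 call was lost without vehicle replicate 1 (adjusted p = 0.0546) and without HRG replicate 1 (adjusted p = 0.14).

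Genes that damp MAP kinase signaling were raised too. Of 16 (dual-specificity phosphatases, Sprouty and SPRED proteins), 10 were raised and 1 lowered, with a median of 0.45. DUSP1, a nuclear phosphatase for MAP kinases, was at 32.5 and 29 CPM with vehicle and 109 and 111 CPM with HRG (1.84 ± 0.07, adjusted p = 1.84e-22). DUSP5, which is specific for ERK, was at 10.4 and 11.5 CPM and 39.8 and 36 CPM (1.79 ± 0.10, adjusted p = 9.95e-17). DUSP10 rose by 0.98 and DUSP2 by 1.40. DUSP2 rested on 1.3 and 0.831 CPM with vehicle and 2.95 and 2.64 CPM with HRG, and without vehicle replicate 2 its call was lost (adjusted p = 0.069). The lowered member was DUSP7 (-0.35), which was singled out after its value was seen and was not called by DESeq2 or without any 1 of the 4 libraries.

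The ERBB receptors themselves were not called, 0 of 4, with a median of -0.05. That count is near the shares over all tested genes, 2.16% raised and 0.604% lowered. ERBB2 was at 8259 and 8269 CPM with vehicle and 7975 and 7788 CPM with HRG, so that both HRG libraries were lower, by 0.07 on the log2 scale (adjusted p = 0.181, and 0.0323 when only the 4 libraries were fitted). ERBB3, the main HRG receptor in luminal cells, was at 264 and 269 CPM and 254 and 254 CPM (adjusted p = 0.502). EGFR was at 71.7 and 66 CPM and 65.8 and 69.1 CPM (adjusted p = 0.927), and ERBB4 at 35.6 and 30.5 CPM and 35.1 and 38 CPM (adjusted p = 0.425). Among 8 genes that restrain ERBB receptors, 1 was raised: ERRFI1 (MIG6), an inhibitor that binds the kinase domain, went from 54.2 and 56.9 CPM to 129 and 127 CPM (1.21 ± 0.05, adjusted p = 6.17e-20). The CBL, LRIG and RNF41 genes on that list were not called. The count of raised genes was 3 with copy rows summed and 2 without vehicle replicate 2, and 1 gene was lowered with filterByExpr, without a filter, with the replicate block or on the 4 libraries alone.

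ERBB ligand genes split between a raised set and the rest. Of 10 tested ligands 4 were raised and 0 lowered, with a median of 0.12, while NRG1 did not reach the filter. DESeq2 raised only 2 of the list, AREG and EPGN. AREG (amphiregulin), an EGFR ligand, was at 5.53 and 3.98 CPM with vehicle and 38.2 and 39.9 CPM with HRG, an 8.25-fold rise (3.04 ± 0.11, adjusted p = 7.51e-23). EPGN (epigen), another EGFR ligand, was at 1.15 and 1.01 CPM and 4.08 and 4.68 CPM (2.02 ± 0.23, adjusted p = 4.75e-08). In the RefSeq gene order of GRCh38.p14, EPGN, EREG and AREG are neighbours. EREG was at 0.192 and 0.0875 CPM and 0.609 and 0.897 CPM (2.40 ± 0.57, adjusted p = 0.00898), and its call was lost without vehicle replicate 2 (adjusted p = 0.213) or HRG replicate 2 (adjusted p = 0.163). HBEGF was at 0.625 and 0.744 CPM and 1.69 and 1.99 CPM (1.41 ± 0.33, adjusted p = 0.00667), a call that DESeq2 did not make (adjusted p = 0.108) and that was lost without either vehicle library (adjusted p = 0.0967 and 0.0513) or without HRG replicate 2 (adjusted p = 0.11). TGFA (0.27), EGF (-0.03), BTC (-0.14), NRG2 (-0.24), NRG3 (-0.09) and NRG4 (-1.12) were not called, with adjusted p from 0.231 to 0.981.

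On the list of CCN genes and YAP-TEAD targets, 4 of 20 were raised and 1 was lowered, and the median was 0.10. CCN1 (CYR61), a secreted relative of CCN2, was at 34.4 and 33.6 CPM with vehicle and 334 and 326 CPM with HRG (3.28 ± 0.06, adjusted p = 4.37e-33). AMOTL2, an angiomotin that binds YAP, was at 119 and 119 CPM and 241 and 242 CPM (1.02 ± 0.05, adjusted p = 7.51e-19). The lowered member was NUAK2, a kinase related to AMPK, at 12 and 10.8 CPM and 5.53 and 4.98 CPM (-1.12 ± 0.13, adjusted p = 1.05e-07). The rises thus covered CCN1, CCN2, AMOTL2 and LATS2 and not the list as a whole.

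Of 14 tested actin cytoskeleton genes known as SRF targets, 9 were raised and 0 lowered, with a median of 0.24. FHL2, a LIM-only adaptor, rose from 7.22 and 5.47 CPM to 13.4 and 11.4 CPM (0.98 ± 0.13, adjusted p = 8e-07), and ZYX (zyxin), a focal adhesion protein, from 91 and 92.5 CPM to 169 and 158 CPM (0.83 ± 0.06, adjusted p = 1.8e-14). CNN2 (calponin 2) rose by 0.83 and TPM4 (a tropomyosin) by 0.56. Among 10 small GTPases 4 were raised: RASD1, GEM (1.66 ± 0.32), RND3 (0.91 ± 0.07) and RHOB (0.69 ± 0.03). RHOB was at 755 and 744 CPM with vehicle and 1219 and 1195 CPM with HRG, whereas the abundant RHOA, RAC1 and CDC42 were not called. The GEM call was lost without vehicle replicate 2 (adjusted p = 0.0817) or HRG replicate 1 (adjusted p = 0.0587).

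Genes that promote RNA decay or slow proliferation were nearly all raised, 7 of 8, with a median of 0.38. ZFP36 (tristetraprolin), which binds AU-rich elements and destabilises cytokine and growth factor messages, was at 32.6 and 27.6 CPM with vehicle and 117 and 118 CPM with HRG (1.97 ± 0.07, adjusted p = 1.07e-23). Its relatives ZFP36L1 and ZFP36L2 rose by 0.99 and 0.90, and BTG1, an antiproliferative factor, by 0.44. Of 14 tested NF-kB factors, inhibitors and cytokines, 2 were raised (CXCL8 and NFKBIZ, the latter by 0.89) and 1 was lowered. That was NFKBIA, which encodes the NF-kB inhibitor IκBα, at 47.1 and 45 CPM with vehicle and 30 and 32.9 CPM with HRG (-0.55 ± 0.06, adjusted p = 2.4e-08). Of 6 tested plasminogen activation and matrix protease genes, THBS1, an angiogenesis inhibitor of the matrix, was the 1 raised, from 79.9 and 79.1 CPM to 213 and 199.7 CPM (1.38 ± 0.05, adjusted p = 7.7e-23).

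Within the MYC network, MYC and MYCN moved in opposite directions. MYC went from 53.5 and 56.2 CPM with vehicle to 126 and 137 CPM with HRG (1.26 ± 0.06, adjusted p = 3.06e-20). MYCN, its neural relative, was at 4.47 and 3.76 CPM and 1.17 and 1.54 CPM (-1.60 ± 0.25, adjusted p = 1.69e-05). MXD1 and MNT, which compete with MYC for MAX, rose by 0.97 and 0.27, and the list counted 3 raised and 1 lowered of 11. The MNT call was lost without vehicle replicate 1 (adjusted p = 0.0975) or HRG replicate 2 (adjusted p = 0.0565). Reads from MYCN and its antisense gene cannot be told apart unless strand was used in counting, which the sources used here do not give.

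Genes tied to PI3K and FOXO signaling went both ways, with 4 of 16 raised and 3 lowered. TRIB1, a pseudokinase that directs protein degradation, was at 174 and 157 CPM with vehicle and 552 and 509.8 CPM with HRG (1.68 ± 0.06, adjusted p = 1.08e-22), and IRS2, an insulin receptor substrate, at 7.84 and 5.34 CPM and 17.3 and 17 CPM (1.39 ± 0.14, adjusted p = 6.63e-10). DDIT4 (REDD1), an inhibitor of mTORC1, was lowered from 45.3 and 47.2 CPM to 24.2 and 24.5 CPM (-0.93 ± 0.08, adjusted p = 2.12e-11). BCL6, a transcriptional repressor, rose by 0.70. Of 13 ID and SMAD feedback genes, ID4 (1.66 ± 0.19), SKIL (0.59 ± 0.08) and BAMBI (0.19 ± 0.05) were raised and ID2 was lowered (-0.45 ± 0.05). The BAMBI call was lost without vehicle replicate 1 (adjusted p = 0.13) or HRG replicate 1 (adjusted p = 0.658).

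Some survival, clock and cell cycle genes were raised, against 2.16% of all tested genes. Of 11 BCL2 family genes, the antiapoptotic MCL1 was the 1 raised, at 545 and 539 CPM with vehicle and 1179.6 and 1176 CPM with HRG (1.12 ± 0.04, adjusted p = 5.8e-25). Without a filter or without HRG replicate 1, 2 genes of that family were raised. Of 15 clock genes, PER1 and PER2, the period genes, were raised by 0.88 and 0.70. Of 15 G1 cyclins and CDK inhibitors, 3 were raised (5 with copy rows summed), and in the edgeR fit of the deposited rows these were the CDK inhibitors CDKN2B (0.94 ± 0.15), CDKN1B (0.31 ± 0.05) and CDKN1A (0.28 ± 0.07). The CDKN1A call was lost without vehicle replicate 1 (adjusted p = 0.274), HRG replicate 1 (adjusted p = 0.0765) or HRG replicate 2 (adjusted p = 0.111).

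Of 11 sterol and fatty acid synthesis genes 7 were raised and 0 lowered, against 2.16% and 0.604% of all tested genes, with a median of 0.26. INSIG1, a sterol-regulated brake on SREBP, was at 200.5 and 188 CPM with vehicle and 287 and 292 CPM with HRG (0.57 ± 0.05, adjusted p = 2.1e-11). IDI1, an isomerase of the isoprenoid pathway, was at 148 and 149.9 CPM and 213 and 213 CPM (0.52 ± 0.06, adjusted p = 6.77e-08). Of 12 glycolysis genes 2 were raised, PFKFB3 by 0.70 and LDHA by 0.25, and LDHA lost its call in DESeq2 (adjusted p = 0.0841), with copy rows summed (adjusted p = 0.0718) and without vehicle replicate 2 (adjusted p = 0.434) or HRG replicate 2 (adjusted p = 0.444).

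Of the DNA replication, ribosome biogenesis and housekeeping lists, edgeR called no member at 1 h, a count near the shares over all tested genes (2.16% raised, 0.604% lowered). None of 16 DNA replication genes, 15 ribosome biogenesis genes and 8 housekeeping genes was called, with medians of 0.04, 0.06 and 0.03. Over the alternative settings, at most 1 DNA replication gene, 1 ribosome biogenesis gene and 2 housekeeping genes were called. Of 11 hormone receptors and luminal regulators 1 was raised and 1 lowered. PGR, the progesterone receptor, was at 666 and 646 CPM with vehicle and 727 and 828 CPM with HRG (0.25 ± 0.05, adjusted p = 0.0023), but without HRG replicate 2 its adjusted p was 0.31. GATA3, a luminal transcription factor, was at 505 and 510.0 CPM and 478 and 443 CPM (-0.14 ± 0.04, adjusted p = 0.0246), and leaving out either vehicle library (adjusted p = 0.329 and 0.366) or HRG replicate 2 (adjusted p = 0.514) lost the call, as did DESeq2 size factors (adjusted p = 0.0502) and summing of copy rows (adjusted p = 0.0968). The luminal marker list held GATA3 too, and its keratins KRT18 and KRT8 rose by 0.31 and 0.12. KRT8 lost its call without HRG replicate 1 (adjusted p = 0.0693), HRG replicate 2 (adjusted p = 0.143) or vehicle replicate 2 (adjusted p = 0.122). Of 13 JAK-STAT and interferon genes 1 was lowered, SOCS2 (-0.39 ± 0.10), a call that DESeq2 did not make (adjusted p = 0.102) and that was lost without either vehicle library (adjusted p = 0.18 and 0.174) or HRG replicate 2 (adjusted p = 0.435).

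**Figure D3:**
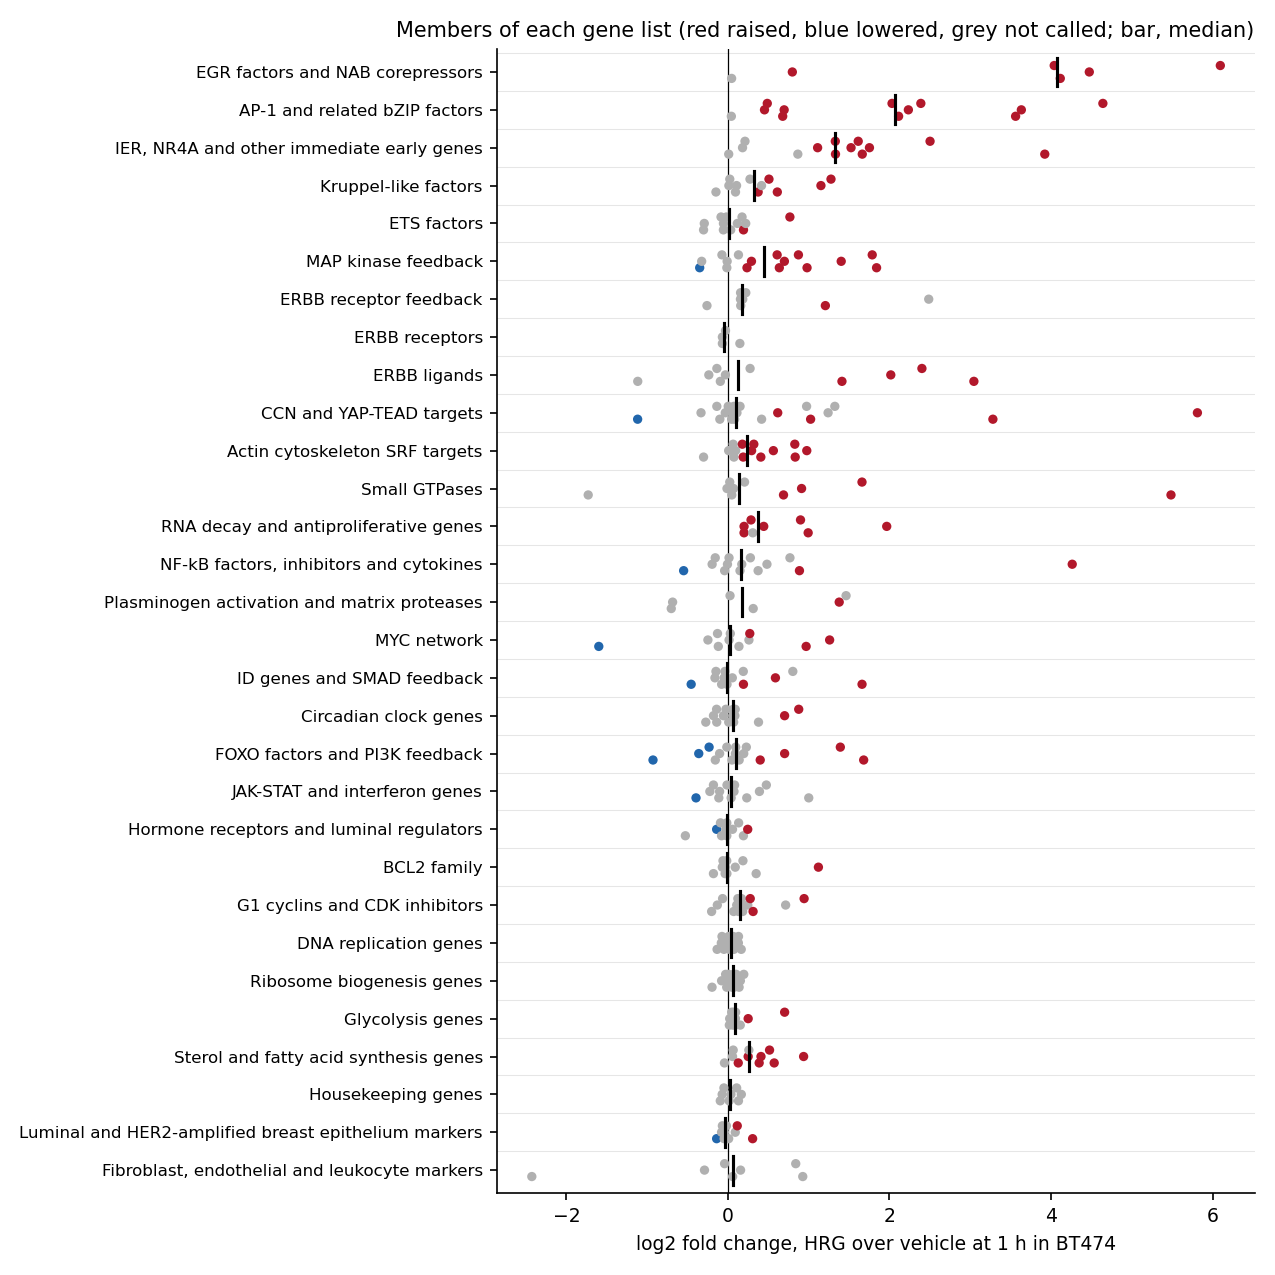
Log2 fold change, HRG over vehicle at 1 h in BT474, of each tested member of the 30 gene lists; red points are raised DEGs, blue lowered DEGs, grey points not called, and the black bar is the median. EGR, AP-1 and immediate early genes sit furthest right (medians 4.08, 2.07 and 1.33), whereas DNA replication, ribosome biogenesis and housekeeping genes cluster at 0 with no red or blue point.

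Of the 152 lowered genes, 139 had at least 1 CPM, against 15056 of the 25146 tested. The 12 largest falls with at least 1 CPM were LOC105371485 (-1.87), MYCN (-1.60), C6orf201 (-1.45), CCR7 (-1.37), DEPP1 (-1.36), LOC105371486 (-1.34), GADD45G (-1.30), LOC112268198 (-1.21), RBM20 (-1.19), ZNF296 (-1.18), CYSRT1 (-1.12) and NUAK2 (-1.12). RBM20, a splicing factor best known from heart muscle, was the most abundant of them, at 24.6 and 20.9 CPM with vehicle and 9.46 and 10.5 CPM with HRG (-1.19 ± 0.13, adjusted p = 7.47e-09). ZNF296, a zinc finger protein, was at 13.6 and 17.1 CPM and 6.89 and 6.73 CPM (-1.18 ± 0.12, adjusted p = 1.06e-09). Both HRG libraries were below both vehicle libraries in these genes, which the naming rule required. The groups did not overlap in any of the 152 lowered DEGs.

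GADD45G, a growth arrest and DNA damage gene, was at 5.15 and 5.47 CPM and 1.97 and 2.34 CPM (-1.30 ± 0.20, adjusted p = 2.03e-05). DEPP1, a FOXO target, was at 3.32 and 2.67 CPM and 1.31 and 0.996 CPM (-1.36 ± 0.25, adjusted p = 0.000319). RBM20 had already fallen between T0 (46.1 and 62.1 CPM) and 1 h of vehicle. The calls of CCR7 and CYSRT1 were lost in DESeq2 (adjusted p = 0.0772 and 0.181) and without any 1 of the 4 libraries (adjusted p 0.0512 to 0.283 for CCR7, 0.0609 to 0.529 for CYSRT1). LOC105371485 was not called without vehicle replicate 2 (adjusted p = 0.169) or HRG replicate 2 (adjusted p = 0.256), LOC105371486 without vehicle replicate 1 (adjusted p = 0.135) or HRG replicate 2 (adjusted p = 0.187), LOC112268198 without vehicle replicate 2 (adjusted p = 0.0604) or HRG replicate 1 (adjusted p = 0.23), and C6orf201 without HRG replicate 1 (adjusted p = 0.234). Uncharacterised LOC genes made up 26 of the 152 lowered DEGs (17.1%) and 12 of the 544 raised ones (2.21%). Their share among all tested genes was not counted, so neither value is read as an excess.

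The second question was how HRG compared with EGF at the same time. EGF-BT474 had 416 raised (1.65%) and 134 lowered (0.533%) genes against the same vehicle libraries. Over the 544 genes raised by HRG the median log2 fold change was 0.41 with HRG and 0.33 with EGF. Choosing these genes by their rise with HRG favours the HRG median. Compared directly, 31 genes were higher with HRG than with EGF (0.123% of those tested) and 4 were lower (0.0159%). All 31 were raised over vehicle by either ligand, and the differences between ligands ran from 0.18 to 0.78 on the log2 scale with a median of 0.40. The doses were 10 ng/mL for HRG and 50 ng/mL for EGF, so ligand and dose cannot be told apart.

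AREG showed the largest of these differences. It was at 21.5 and 24.1 CPM in EGF-BT474 and 38.2 and 39.9 CPM in HRG-BT474, a difference of 0.78 ± 0.08 (adjusted p = 1.51e-07). PTGER4, a receptor for prostaglandin E2, was at 6.59 and 5.42 CPM with vehicle, 18.4 and 21.7 CPM with EGF and 34.4 and 31.1 CPM with HRG, a difference of 0.71 ± 0.09 (adjusted p = 4.21e-06). In both genes the HRG libraries were highest, the EGF libraries lay in between and the vehicle libraries were lowest, without overlap. The same order held for EGR4 (0.70 ± 0.10 between the ligands), RASD1 (0.70 ± 0.07) and EGR2 (0.70 ± 0.07). EGR2 was at 117 and 131 CPM with EGF, against 208 and 194 CPM with HRG.

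For other raised genes the ligands were not told apart, as in these 2 examples chosen after their values were seen. KLF2 was at 93.7 and 95.8 CPM with EGF and 92 and 97 CPM with HRG (difference -0.00 ± 0.06), and RHOB at 1199 and 1195 CPM with EGF and 1219 and 1195 CPM with HRG (difference 0.01 ± 0.03). Among the 4 genes lower with HRG, ARRDC3, an arrestin-related adaptor, was itself a DEG, at 37 and 40.5 CPM with vehicle, 24.6 and 25.4 CPM with EGF and 20.5 and 16.3 CPM with HRG, a difference of -0.44 ± 0.08 (adjusted p = 0.00343). The others were LOC644936, MTRNR2L8 and a copy row of MTRNR2L6, which were not DEGs against vehicle. The count of 35 fell to 19 and 23 without HRG replicate 1 or 2 and to 14 without EGF replicate 1, and was 18 when only the 4 libraries compared were fitted.

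The third question was what remained of the 1 h response later. HRG changed far more genes at 12 h, with 3332 raised (13.3%) and 3150 lowered (12.5%), and 3155 (12.5%) and 2907 (11.6%) at 24 h. Of the 544 genes raised at 1 h, 234 were raised at 12 h (43.0% of the 1 h genes and 7.02% of the 12 h genes), 64 were lowered and 246 were not called. At 24 h 210 were raised and 77 lowered. Of the 152 lowered at 1 h, 56 were lowered and 22 raised at 12 h, and 49 and 21 at 24 h. Tested as a difference of HRG effects between the times, 1818 genes (7.23%) had a higher effect at 12 h and 1753 (6.97%) a lower one.

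EGR1 and FOS were below the vehicle level by 12 h. EGR1 was at 34.8 and 34.6 CPM with vehicle and 16.2 and 12 CPM with HRG at 12 h (-1.31 ± 0.08, adjusted p = 3.33e-15), and at 26.8 and 30.7 CPM and 4.64 and 5.96 CPM at 24 h (-2.46 ± 0.11, adjusted p = 3.43e-20), so the HRG libraries, highest at 1 h, were now lowest. FOS followed the same course, with 4.33 and 3.45 CPM and 2.09 and 1.84 CPM at 12 h (-1.004 ± 0.18, adjusted p = 3.6e-05). EGR2 at 12 h was at 0.39 and 0.624 CPM with vehicle and 0.391 and 0.531 CPM with HRG, overlapping and near the detection limit. The differences between 12 h and 1 h were -5.35 ± 0.10 for EGR1, -5.65 ± 0.21 for FOS and -6.18 ± 0.59 for EGR2. Such differences reuse the 1 h libraries that chose the genes as DEGs, which favours a difference opposite to the 1 h change.

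A second set stayed raised. AREG was at 3.51 and 3.08 CPM with vehicle and 22.2 and 24.1 CPM with HRG at 12 h (2.81 ± 0.12) and at 3.51 and 2.73 CPM and 19.8 and 17.6 CPM at 24 h (2.603 ± 0.13), and its effect at 12 h and 1 h differed by -0.24 ± 0.18 (adjusted p = 0.48). EPGN was higher with HRG at both later times (2.16 and 3.497). At 24 h it was at 0.0975 and 0.0395 CPM with vehicle and 0.83 and 0.75 CPM with HRG. The detection limit of 3 reads was 0.15 and 0.123 CPM in these vehicle libraries, so the 24 h fold change rests on very few reads. EGR3 also stayed above vehicle (1.91 and 2.05). Its level in HRG-BT474 nevertheless fell from 417 and 393 CPM at 1 h to 3.35 and 2.52 CPM at 12 h. ERRFI1 was still raised by 0.69 at 12 h and 0.30 at 24 h. MYC was raised by 0.26 at 12 h and stood at -0.01 at 24 h (adjusted p = 0.946). MCL1 was no longer apart at 12 h (adjusted p = 0.98), with 489 and 498 CPM and 486 and 498 CPM.

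Another set changed later or turned around. PGR, higher with HRG at 1 h, was lower at 12 h, with 644 and 638 CPM and 279 and 309 CPM (-1.12 ± 0.05, adjusted p = 3.9e-19), and at 24 h (-1.47). Of the ERBB receptors, none of which was called at 1 h, ERBB2, ERBB3 and ERBB4 were lowered at 12 h by 0.10, 0.39 and 1.33, and EGFR was raised by 0.36. SOCS2 fell by 1.71 at 12 h and 2.63 at 24 h. MYCN, lowered at 1 h, was at 4.86 and 5.78 CPM and 6.47 and 6.91 CPM at 12 h, a difference between the times of 1.94 ± 0.29 (adjusted p = 5.23e-06). All 16 DNA replication genes, none of them called at 1 h, were raised at 12 h and at 24 h, as were 11 of 12 glycolysis genes at both times. Over all tested genes 13.3% were raised and 12.5% lowered at 12 h, and 12.5% and 11.6% at 24 h.

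**Figure D4:**
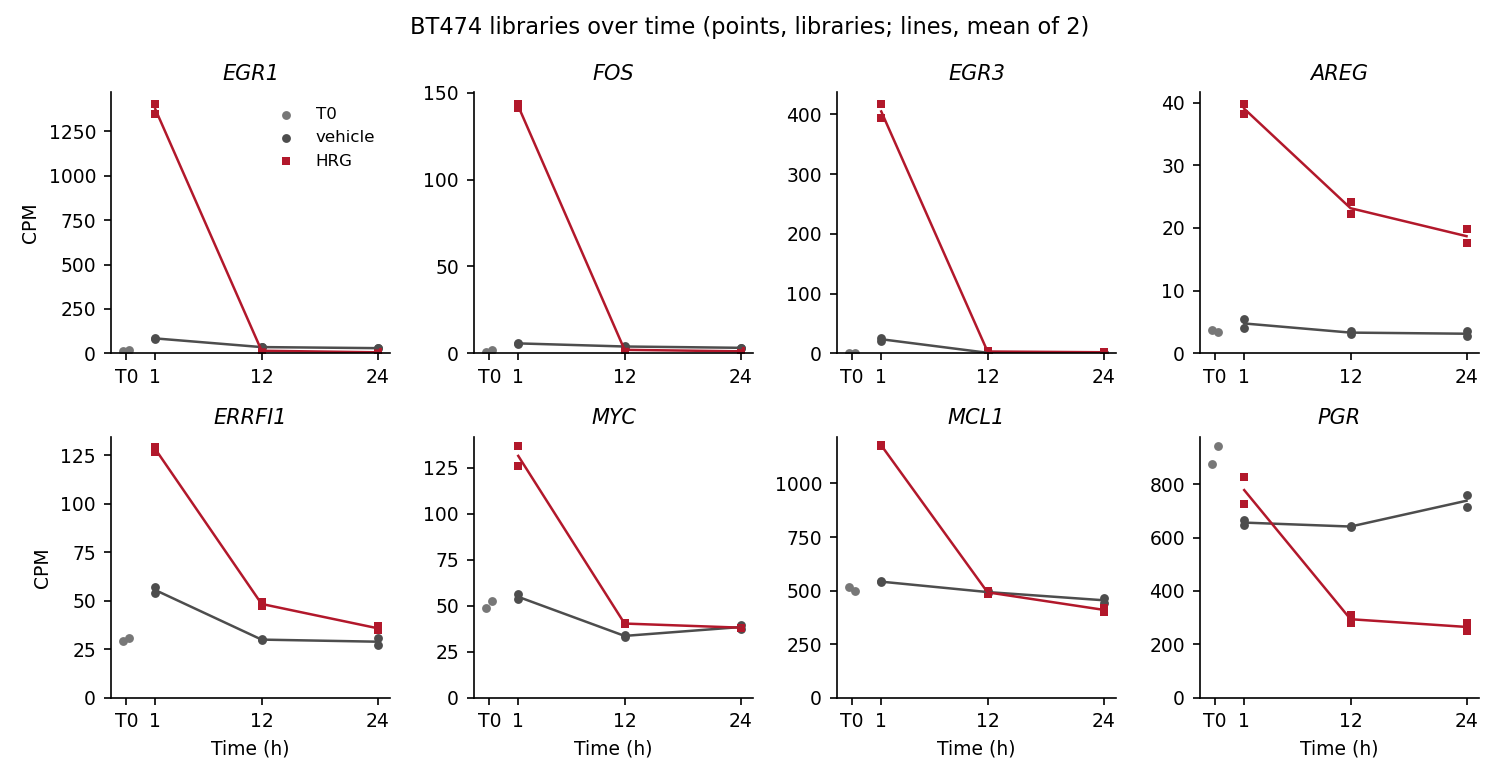
CPM of 8 genes in BT474 at T0 and after 1, 12 and 24 h of vehicle (grey circles) or HRG (red squares); points are libraries and lines join means of 2. EGR1, FOS and EGR3 peak at 1 h, AREG stays above vehicle through 24 h, and PGR drops below vehicle from 12 h.

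The last question was whether BT474R, the trastuzumab-resistant clone, gave the same 1 h response. HRG-BT474R had 41 raised (0.169% of 24287 tested) and 0 lowered genes, with 673 higher and 385 lower at an unadjusted p under 0.05 and 49 raised and 1 lowered by DESeq2. Of the 41, 40 were among the 544 raised in BT474 (97.6% of the BT474R list and 7.35% of the BT474 list), and the other was INE1, named after its value was seen. Over the raised BT474 DEGs the median log2 fold change was 0.41 in BT474, where they were chosen, and 0.13 in BT474R (539 tested there). Tested as a difference between the lines, the effect was lower in BT474R for 122 genes (0.495% of 24641) and higher for 12 (0.0487%). All 122 were raised DEGs of BT474, but the difference test reuses the BT474 libraries that chose those DEGs, which favours this overlap. The common dispersion, the squared coefficient of variation between replicates, was 0.0012 in BT474 and 0.0030 in BT474R, and its part in the lower count of DEGs was not tested. The count of 134 fell to 86 without BT474 vehicle replicate 2, 89 without BT474 HRG replicate 1 and 80 without BT474R vehicle replicate 2.

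Some of the strongest rises were smaller in BT474R. RASD1 was at 7.34 and 7.97 CPM with vehicle and 26.1 and 22.6 CPM with HRG in BT474R, a log2 fold change of 1.67 ± 0.12, against 5.48 ± 0.12 in BT474. The difference was -3.83 ± 0.19 (adjusted p = 5.55e-17). CCN1 was at 22.7 and 23.4 CPM and 42 and 31.7 CPM, with a difference of -2.61 ± 0.12 (adjusted p = 3.06e-17), and FOS at 3.69 and 3.13 CPM and 14.7 and 11.1 CPM, with a difference of -2.72 ± 0.29 (adjusted p = 5.24e-08). In all 3 the HRG libraries of BT474R still lay above its vehicle libraries. ATF3 was at 10.5 and 13.7 CPM and 29.8 and 24.9 CPM (difference -2.41 ± 0.28). ACTA1 was at 0.369 and 0.388 CPM and 0.325 and 0.368 CPM (difference -3.84 ± 0.68, adjusted p = 0.000827). Its HRG libraries in BT474R lay just below its vehicle libraries, with a log2 fold change of -0.13 ± 0.55. AREG, at 38.2 and 39.9 CPM with HRG in BT474, was at 1.15 and 1.1 CPM and 2.82 and 1.47 CPM in BT474R (adjusted p = 0.546; difference -2.10 ± 0.30, adjusted p = 2.6e-05).

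Other rises were not shown to differ. EGR2 rose by 6.48 ± 0.37 in BT474R, from 0.246 and 0.0597 CPM to 16.2 and 9.39 CPM, a difference from BT474 of 0.39 ± 0.67 (adjusted p = 0.964). EGR3 was at 0.902 and 1.19 CPM and 34.9 and 21 CPM (4.71 ± 0.29, difference 0.58 ± 0.37), and CXCL8 at 0.082 and 0 CPM and 1.2 and 0.883 CPM (difference 0.46 ± 0.99). The detection limit of 3 reads was 0.125 and 0.0899 CPM in the BT474R vehicle libraries. The fold changes of EGR2 and CXCL8 there thus rest on very few vehicle reads, and equal effects in the lines were not shown. For these genes both the vehicle level and the level reached with HRG were lower than in BT474. CCN2 rose by 3.61 ± 0.43 in BT474R, and its difference of -2.21 ± 0.62 missed the threshold (adjusted p = 0.145).

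Among lists, the EGR and NAB genes had 4 of 6 members raised in BT474R, the AP-1 list 4 of 12, the immediate early list 5 of 13 and MAP kinase feedback 4 of 16. The actin list had 0 of 14 raised there, near the share of 0.169% over all genes, and 7 of its genes had a lower effect in BT474R than in BT474, against 0.495% of all genes. Of the 12 genes whose effect was higher in BT474R, 10 were lowered DEGs of BT474, an overlap that the shared BT474 libraries favour too. MYCN was at 11.5 and 11.9 CPM and 10.9 and 9.87 CPM in BT474R (difference 1.42 ± 0.28, adjusted p = 0.00451), NUAK2 at 6.72 and 6.53 CPM and 6.04 and 6.4 CPM (1.01 ± 0.23), and RASL11B, a Ras-like GTPase, at 4.14 and 4.09 CPM and 3.77 and 5.08 CPM (1.196 ± 0.22). RASL11B in BT474 had gone from 12.2 and 13.3 CPM to 6.28 and 5.48 CPM.

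**Figure D5:**
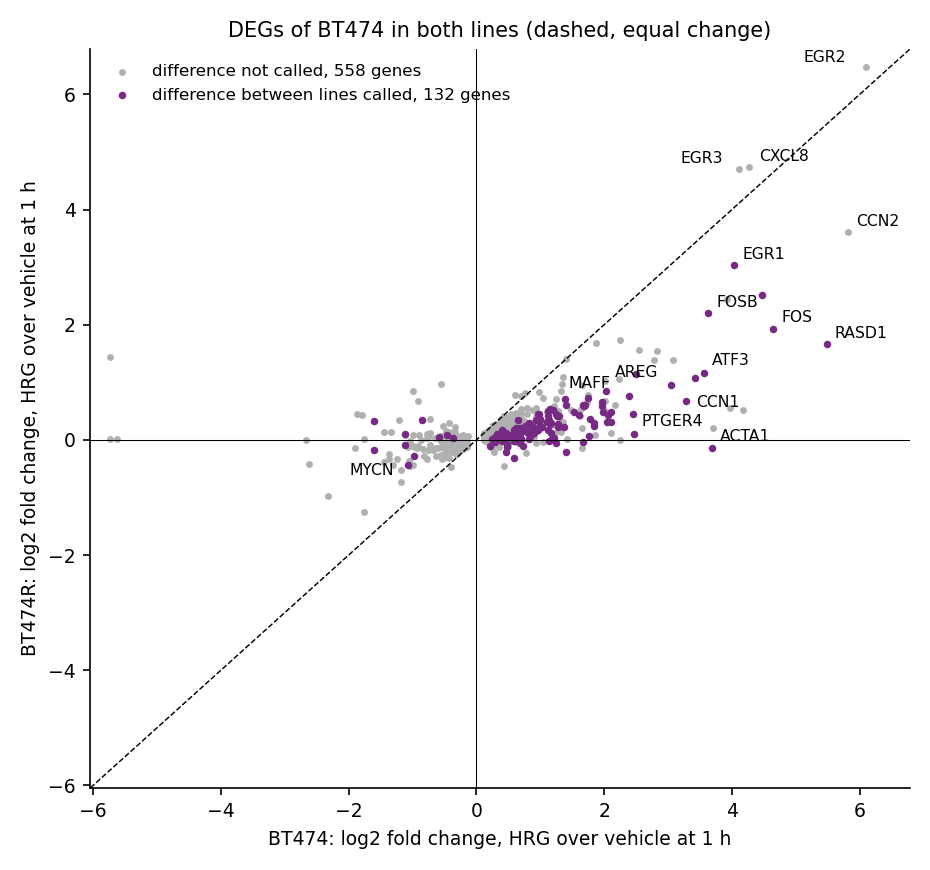
Log2 fold change, HRG over vehicle at 1 h, in BT474 (x axis) and BT474R (y axis) for the 690 BT474 DEGs tested in both lines; the dashed line marks equal change. The 132 DEGs whose difference between lines was called (purple) lie closer to 0 in BT474R, which choosing the genes by their change in BT474 favours. EGR2, EGR3 and CXCL8 lie near the dashed line, although EGR2 and CXCL8 had very few reads in the BT474R vehicle libraries.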

How the data were processed

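Poly(A) RNA libraries (Kapa mRNA HyperPrep) of BT474 and BT474R cells were sequenced by the authors, who deposited 1 table of raw read counts per gene for 40 libraries. Per the labels and the study's methods, reads were checked with FastQC and MultiQC, trimmed with Trim Galore 0.6.6, aligned with Rsubread to GRCh38.p13 and counted with featureCounts; the annotation release and the strand setting are not given in the sources used here. The 44584 gene rows included 5078 copy rows (a symbol with a number added) holding 2.96% of the reads.

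Counts were tested as deposited with edgeR 4.0.16 in R 4.3.3 (TMM, quasi-likelihood test, Benjamini-Hochberg adjustment, threshold 0.05), keeping genes with 1 read or more in 50% or more of the libraries. All 20 BT474 libraries entered the fit, with 1 group per treatment and time. BT474R was fitted on its own 20 libraries and the difference between lines on all 40. SE was the log2 fold change divided by the square root of F. The table had 0 unmapped value columns. Tests were checked on simulated data. Alternatives were DESeq2 1.42.0, DESeq2 size factors, other filters, summed copy rows, a replicate block, fewer libraries and leaving out each library.

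Named genes were the 12 largest rises and falls among DEGs with at least 1 CPM and non-overlapping groups, up to 4 DEGs of each of 30 lists, all EGR, ERBB receptor and ERBB ligand genes, and up to 5 DEGs per direction of each tested difference; others are stated as chosen after their values were seen. A few list members are not reported here. The genes, lists and comparisons were chosen with earlier results of these data known. Sequences came from RefSeq (GRCh38.p14), by symbol, using the first window of the 3951 genes with several. The count of reads per library sets the precision, and 3 reads were taken as the detection limit.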

Additional observations from a re-analysis of the deposited data

Results flagged for a closer look

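Genes below had an HRG effect that differed by the edgeR test of the difference itself, between the lines or between the times. Between BT474R and BT474 134 genes differed. On the log2 scale, the BT474R effect minus the BT474 effect was -3.83 for RASD1, -2.72 for FOS, -3.84 for ACTA1, -2.41 for ATF3 and -2.61 for CCN1. It was 1.42 for MYCN, 1.01 for NUAK2, 1.196 for RASL11B, 1.18 for LOC102724488 and 0.68 for PACSIN1, genes that fell in BT474.

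Between 12 h and 1 h in BT474, 3571 genes differed. Those named here were DEGs at 1 h, and the test reuses the 1 h libraries, which favours a difference opposite to the 1 h change. The 12 h effect minus the 1 h effect was -6.18 for EGR2, -5.65 for FOS, -5.66 for EGR4 and -5.35 for EGR1. CXCL8 gave a fitted -8.53, but its HRG libraries at 12 h held 0 reads, so the value depends on the prior count and is no bound. The difference was 2.53 for LOC105371485, 1.94 for MYCN, 1.98 for CCR7, 2.03 for LOC105371486 and 2.11 for LOC107984805. DESeq2 did not call the 1 h falls of CCR7 (adjusted p = 0.0772) and LOC107984805 (adjusted p = 0.086). The 1 h log2 fold change of LOC107984805 ran from -1.55 to -0.563 when 1 library was left out. The 1 h calls of CCR7, LOC105371485 and LOC105371486 also depended on single libraries, as given above.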

How the results depend on the processing

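The 1 h HRG comparison in BT474 gave 585 DEGs with DESeq2, 756 with DESeq2 size factors, 704 with filterByExpr, 885 without a filter, 800 with copy rows summed and 963 on its 4 libraries alone, against 696. Leaving out 1 library gave 455 to 518 DEGs. The lowered genes numbered 267 without a filter and 79 with DESeq2, against 152. Of the 94 named DEGs, 74 kept the call under each alternative run for them, 20 lost it somewhere and 0 changed direction. Without a filter, HRG against EGF gave 96 genes against 35, BT474R 151 against 41 and the difference between lines 225 against 134. On the compared libraries alone, HRG against EGF gave 18 and vehicle against T0 gave 2831 genes, against 1662. Leaving out 1 library gave 14 to 34 genes for HRG against EGF, 80 to 154 between lines and 2647 to 3009 for 12 h against 1 h. The alternatives for the EGF, later HRG, vehicle against T0 and BT474R comparisons were chosen after seeing the data. Without 1 library at a time, 6 genes that were not called changed sign: NAB1 (-0.0034 to 0.13), EGFR (-0.075 to 0.056), EGF (-0.15 to 0.11), BTC (-0.23 to 0.00072), NRG2 (-0.54 to 0.16) and NRG3 (-0.199 to 0.0536). The labels do not say that a replicate number marks a shared culture, and the deviations of same-numbered libraries correlated by -0.03 between vehicle and HRG and 0.06 between HRG and EGF. With the replicate number as a block, HRG against vehicle gave 764 DEGs, HRG against EGF 47, 12 h against 1 h 3747 and the difference between lines 143. The cause of these shifts was not tested. With copy rows summed, 5 of 13 ID and SMAD genes and 2 of 11 hormone receptors and luminal regulators were raised, against 3 and 1, and without a filter 3 of the latter were raised. With 2 libraries a group, the calls of genes with few reads, such as EREG and HBEGF, depended on the setting. The power to detect small changes of such genes was not computed.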
